A study of Mus musculus with 6 samples.

Results

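The adhesion G protein-coupled receptors (adhesion GPCRs) and the tetraspanins were followed in RNA-seq counts of mouse Sertoli cells, the somatic cells that line the seminiferous tubule and build the blood–testis barrier. Members were the protein-coding genes whose symbol begins with Adgr, a letter from a to v and a digit, those whose symbol begins with Tspan and a digit, and Cd9, Cd81, Cd82, Cd151, Cd53 and Cd37. The rule found 53 of the 28262 genes listed, 27 adhesion GPCR genes and 26 tetraspanin genes, and used no measured value. The 6 libraries were 3 of Pa1F/F cells, which carry the floxed Pa1 alleles and served as control, and 3 of Pa1-/- cells, all from testes of 20-day-old C57BL/6 mice. Pa1 encodes PA1, a nuclear protein known from complexes that methylate histone H3, and Amh-cre, whose promoter is active in Sertoli cells, deleted it in the Pa1-/- mice. The cells were obtained by enzymatic digestion of the testis and kept in culture at 34 °C before germ cells were washed off, so they were attached cells of a digest and not sorted. Pa1 itself was not analysed here, so the deletion was not checked in the counts. The study's methods call the replicates biological, neither they nor the labels say whether each came from separate animals, and p-values measure the spread between these libraries.

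Adhesion GPCRs combine a long extracellular region of adhesion domains with the membrane-spanning bundle of a G protein-coupled receptor, and most cut themselves at a site just outside the membrane. Pulling on the outer fragment by a ligand on a neighbouring cell or in the matrix can expose a tethered peptide that activates the receptor. Tetraspanins are small membrane proteins that do not signal on their own but hold integrins, immunoglobulin-type proteins and proteases in membrane clusters. In gametes Cd9 and Cd81 are known for sperm–egg fusion, and Adgrg1 is known from mouse mutants with reduced male fertility. In the description that the authors attached to each gene, all 26 tetraspanin genes carried the tetraspanin domain and 20 of the 27 adhesion GPCR genes the secretin-type receptor domain, with other domains of these large receptors named for the rest.

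Total counts were 14051353 to 16231443 in Pa1F/F and 13203757 to 15247587 in Pa1-/-. A count of 3, taken as the floor that a count of 0 allows, stood at 0.185 to 0.227 CPM (counts scaled to the total of the library), and covers counting error only. Libraries of a genotype were not equally close. Pa1F/F replicates 1 and 3 lay at a root mean square log2 CPM distance of 0.267 and replicate 2 at 0.470 and 0.475 from them, while Pa1-/- replicates 1 and 2 lay at 0.285 and replicate 3 at 0.563 and 0.567 from them. The Sertoli cell markers Sox9 and Wt1 were read at 221 to 339 CPM and 314 to 409 CPM in the 6 libraries. Of 11 tested Sertoli markers, 4 were lower in Pa1-/- at an adjusted p under 0.05 (Gata4, Clu, Inha and Inhbb), and Rhox5 did not reach the count filter. Markers of other cells were present as well. Of the tested markers, 10 of 12 for macrophages, 3 of 3 for Leydig cells and 3 of 4 for spermatogonia were lower, and 4 of 5 for mesothelial cells and 1 of 5 for peritubular myoid cells were higher, with no marker of these lists called in the other direction. Pa1-/- replicate 3 stood apart in myoid markers. Actg2 gave counts of 202, 128 and 156 in Pa1F/F and 68, 46 and 729 in Pa1-/-, and Myh11 gave normalized counts of 649, 481 and 580.0 in the Pa1F/F libraries and 216, 164 and 1605 in the Pa1-/- libraries. Cnn1 and Des were likewise far higher in Pa1-/- replicate 3 than in the other 5 libraries, and these 4 markers did not pass the test, while the called Acta2 was higher in each Pa1-/- library. The same library was the highest in the Sertoli marker Amh, with counts of 205, 262 and 171 in Pa1F/F and 45, 43 and 364 in Pa1-/-, which did not pass the test (log2 fold change -0.43, adjusted p = 0.698). The part of this library's marker levels in the members was not tested. Of 4 tested endothelial markers 2 were lower and 1 higher, and none of 3 spermatocyte markers, 1 spermatid marker or 1 lymphocyte marker was called. In bulk RNA fewer cells of a type and less RNA per cell cannot be told apart.

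A gene was called when its adjusted p was under 0.05 in edgeR's quasi-likelihood test over the 14919 tested genes and its log2 fold change (Pa1-/- over Pa1F/F) was at least 1 in size. Over all tested genes 6.56% were lower and 5.44% higher by this rule. Of 17 tested adhesion GPCR genes, 2 were lower (11.8%) and 2 higher (11.8%). Of 22 tested tetraspanin genes, 5 were lower (22.7%) and 3 higher (13.6%). At an adjusted p under 0.05 without a fold threshold, 17.1% of all tested genes were lower and 18.2% higher, against 3 and 4 adhesion GPCR genes (17.6% and 23.5%) and 7 and 7 tetraspanin genes (31.8% each). With 17 and 22 genes the shares rest on few genes, and no test of the families was made. The median log2 fold change was 0.16 in the adhesion GPCR genes, -0.07 in the tetraspanin genes and 0.00 over all tested genes. The median size of the change without regard to sign was 0.60, 0.49 and 0.30 in the same order.

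**Figure D1:**
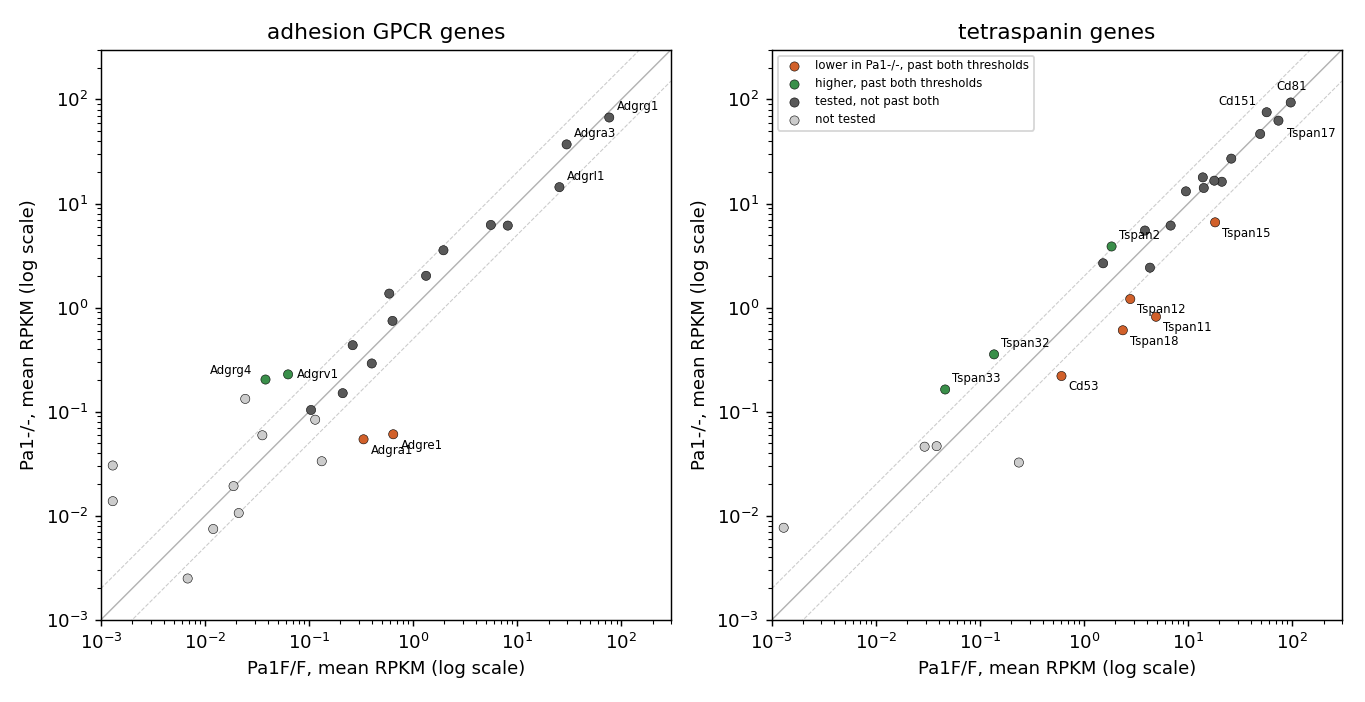
Mean level of each member in Pa1F/F (horizontal axis) and Pa1-/- (vertical axis), in RPKM (reads scaled to exon length and library size) on log scales, adhesion GPCR genes on the left and tetraspanin genes on the right. The solid line marks equal levels and the dashed lines a change by a factor of 2, and 3 genes with a mean of 0 in Pa1F/F (Adgrf3, Adgrl4 and Tspan10) are drawn near the left edge. The most highly read genes (Adgrg1, Adgra3, Adgrl1, Cd81, Tspan17, Cd151) lie within the dashed lines, and the called genes, in colour, lie below them in level.

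The promoters of 4 called members are shown because these genes gave the lowest adjusted p of the tetraspanins (Tspan15), the largest fall of the tetraspanins (Tspan11) and the largest rise of the adhesion GPCRs (Adgrg4), or hold the TATA box letters (Tspan12). They run from 250 bases before to 50 bases after the start site in RefSeq (GRCm38.p6), which held a promoter for 45 of the 53 members. Tspan15 is at chr10:62231169-62231468 on the minus strand, Tspan11 at chr6:127887372-127887671 on the plus strand, Tspan12 at chr6:21852484-21852783 on the minus strand and Adgrg4 at chrX:56893984-56894283 on the plus strand. Capitals mark the AP-1 motif (TGANTCA) in Tspan15 and Adgrg4 and the TATA box letters (TATAAA on the opposite strand, hence TTTATA) in Tspan12. AP-1 dimers of the JUN and FOS families, which the study was concerned with, bind the AP-1 motif.
Tspan15: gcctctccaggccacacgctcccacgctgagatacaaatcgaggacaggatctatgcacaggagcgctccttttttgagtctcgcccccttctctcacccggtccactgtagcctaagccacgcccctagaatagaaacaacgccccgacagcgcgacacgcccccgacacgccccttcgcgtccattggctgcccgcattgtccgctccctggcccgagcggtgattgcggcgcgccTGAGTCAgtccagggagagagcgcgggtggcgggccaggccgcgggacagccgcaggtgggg
Tspan11: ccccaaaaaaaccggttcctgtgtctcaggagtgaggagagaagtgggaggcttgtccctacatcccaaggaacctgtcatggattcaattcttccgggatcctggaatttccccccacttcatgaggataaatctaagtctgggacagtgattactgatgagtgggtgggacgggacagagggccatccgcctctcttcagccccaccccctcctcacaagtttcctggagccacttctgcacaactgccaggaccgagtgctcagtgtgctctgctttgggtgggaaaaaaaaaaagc
Tspan12: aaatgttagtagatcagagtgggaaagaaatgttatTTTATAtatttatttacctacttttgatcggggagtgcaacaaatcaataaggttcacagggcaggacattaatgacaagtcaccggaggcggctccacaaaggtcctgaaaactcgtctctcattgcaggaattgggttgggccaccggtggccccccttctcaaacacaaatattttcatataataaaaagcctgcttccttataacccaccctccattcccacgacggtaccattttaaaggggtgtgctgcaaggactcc
Adgrg4: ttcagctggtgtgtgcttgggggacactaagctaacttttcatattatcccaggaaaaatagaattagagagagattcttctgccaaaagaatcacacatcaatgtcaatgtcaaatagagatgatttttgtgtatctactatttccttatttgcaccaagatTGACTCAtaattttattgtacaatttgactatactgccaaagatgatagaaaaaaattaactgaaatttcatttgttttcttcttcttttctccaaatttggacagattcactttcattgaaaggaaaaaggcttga
The AP-1 motif begins 12 bases before the start site in Tspan15, a gene lower in Pa1-/-, and 87 bases before it in Adgrg4, a gene higher in Pa1-/-. The TATA letters in Tspan12 begin 214 bases before the start. They were in 13.6% of all promoters, 8.33% of those of adhesion GPCR genes, 5.71% of those of tetraspanin genes and 1 of 11 promoters of called members. On both strands, the AP-1 motif was in 7.81% of 32817 promoters of all genes, in 3 of 24 promoters of adhesion GPCR genes (12.5%), in 2 of 35 promoters of tetraspanin genes (5.71%) and in 2 of 11 promoters of called members. The GC box letters GGGCGG were in 35.6% of all promoters, 54.2% of those of adhesion GPCR genes, 45.7% of those of tetraspanin genes and 1 of 11 promoters of called members, that of Tspan33, which holds 2 and is not shown. The letters of the cyclic AMP response element, TGACGTCA, were in 1.79% of all promoters and in 0 promoters of the 2 families. No motif searched is contained in another. The RefSeq start of Adgrg4 lies inside the gene as the counting table places it, downstream of the table's own start, while those of the other 3 lie close to it. A match describes these letters and no binding was measured here.

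Among the adhesion GPCR genes, most of the summed level came from 3 members. The summed RPKM of the 27 genes was 153 ± 11.6 in Pa1F/F and 140.4 ± 15.7 in Pa1-/- (SD, n = 3), with overlapping libraries. Adgrg1 (GPR56), a receptor for collagen III and transglutaminase 2 that signals through G12 and G13 proteins, made up 50.1% of this sum in Pa1F/F and 47.7% in Pa1-/-. Its level was 76.6 ± 9.48 RPKM in Pa1F/F and 67.1 ± 8.10 RPKM in Pa1-/-. Adgrg1 gave normalized counts (counts scaled to a common effective library size) of 9474, 11107 and 8746 in the Pa1F/F libraries and 7799, 8129 and 9730.2 in the Pa1-/- libraries. The groups overlapped, since Pa1-/- replicate 3 lay among the Pa1F/F libraries, and the change did not pass the test (log2 fold change -0.19 ± 0.12 (SE), adjusted p = 0.256).

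Adgra3 (GPR125), known in the testis as a marker of spermatogonial progenitors, stood second at 29.8 ± 0.585 RPKM in Pa1F/F and 37 ± 1.59 RPKM in Pa1-/-. Its normalized counts were 5882, 5688 and 5685 in the Pa1F/F libraries and 6944, 6959 and 7481 in the Pa1-/- libraries. All Pa1-/- libraries lay above all Pa1F/F libraries, by a small step (log2 fold change 0.31 ± 0.06 (SE), adjusted p = 0.00721), and its share of the summed RPKM was 19.6% in Pa1F/F and 26.5% in Pa1-/-. Of the spermatogonia markers tested, Gfra1, Kit and Ddx4 were lower in Pa1-/-, with Gfra1 counts of 40, 28 and 46 in Pa1F/F and 13, 12 and 11 in Pa1-/-. Uchl1 did not pass the test (log2 fold change -0.35 ± 0.24 (SE), adjusted p = 0.300) and made up most of the summed level, which was 191 to 221 CPM in Pa1F/F and 107 to 198 CPM in Pa1-/- with overlap. Their part in the value of Adgra3 was not tested.

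The latrophilins Adgrl1, Adgrl2 and Adgrl3 are receptors that bind teneurins and FLRT proteins on neighbouring cells. Adgrl1 was the third most highly read member, at 25.4 ± 2.91 RPKM in Pa1F/F and 14.4 ± 5.22 RPKM in Pa1-/-. Adgrl1 gave normalized counts of 3083, 3704 and 3033 in the Pa1F/F libraries and 1402, 1522 and 2621 in the Pa1-/- libraries. Every Pa1-/- library was below every Pa1F/F library, but replicate 3 lay far above the other Pa1-/- libraries, and the fall passed the adjusted p without reaching the fold threshold (log2 fold change -0.82 ± 0.24 (SE), adjusted p = 0.0348). Without Pa1-/- replicate 3 its log2 fold change was -1.16 with an adjusted p of 0.000165. Adgrl2 gave normalized counts of 2503, 2264 and 2331 in the Pa1F/F libraries and 1532, 1507 and 2325 in the Pa1-/- libraries. Replicate 3 of Pa1-/- again lay above the other Pa1-/- libraries, here within the Pa1F/F range, and the change did not pass the test (log2 fold change -0.40 ± 0.17 (SE), adjusted p = 0.105). Adgrl3 was read far less, at 72.5, 61 and 65 in the Pa1F/F libraries and 48.8, 45.1 and 48.1 in the Pa1-/- libraries, with no overlap between the genotypes, and did not pass the adjusted p (log2 fold change -0.48 ± 0.16 (SE), adjusted p = 0.0565). The summed RPKM of these 3 genes was 32.8, 36.8 and 31.8 in the Pa1F/F libraries and 16.3, 17.1 and 28.5 in the Pa1-/- libraries.

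The called adhesion GPCR genes were read at low levels, under 1 RPKM in either genotype. Adgre1 (ENSMUSG00000004730, chr17:57358686-57483529, plus strand), which encodes the macrophage antigen F4/80, gave counts of 26, 64 and 14 in Pa1F/F and 3, 4 and 2 in Pa1-/-. Each Pa1-/- library lay below each Pa1F/F library, although Pa1F/F replicate 2 alone held more counts than replicates 1 and 3 together. The mean normalized count fell from 33.4 ± 25.1 to 3.15 ± 1.27 (SD, n = 3; log2 fold change -3.38 ± 0.71 (SE), adjusted p = 0.0113). Without Pa1F/F replicate 2 the log2 fold change was -2.59. Adgre1 stayed called without any 1 library, but not with the close pairs of libraries summed (adjusted p = 0.0634), against a null of a log2 fold change of 1, or in a table limited to genes with at least 10 counts in every library, which left it out. The 17 macrophage markers were all listed, their summed level was 139 to 156 CPM in Pa1F/F and 86.6 to 97.5 CPM in Pa1-/-, and no defining marker was at 0 in every library. Ptprc gave counts of 29, 33 and 21 in Pa1F/F and 5, 4 and 2 in Pa1-/-, and Csf1r of 47, 87 and 57 in Pa1F/F and 11, 8 and 13 in Pa1-/-. Mrc1, the most highly read of the list, gave 1088, 1056 and 901 in Pa1F/F and 1209, 1079 and 930 in Pa1-/-. Ptprc and Csf1r fell with Adgre1 and Mrc1 did not pass the test (log2 fold change 0.17 ± 0.11 (SE), adjusted p = 0.254). The part of these cells in the change of Adgre1 was not tested.

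Adgra1 (GPR123; ENSMUSG00000025475, chr7:139834174-139878088, plus strand), an orphan receptor known mainly from the brain, gave counts of 35, 34 and 19 in Pa1F/F and 6, 7 and 0 in Pa1-/-. The Pa1-/- libraries were all below the Pa1F/F libraries, and replicate 3 held no read. The mean normalized count fell from 28.2 ± 7.18 to 4.58 ± 4.09 (SD, n = 3; log2 fold change -2.62 ± 0.67 (SE), adjusted p = 0.0226). Its adjusted p rose to between 0.0586 and 0.0756 without Pa1-/- replicate 1, Pa1F/F replicate 1 or Pa1F/F replicate 2, and its log2 fold change was -2.03 without Pa1-/- replicate 3 and -3.19 without Pa1-/- replicate 2.

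Adgrv1 (VLGR1; ENSMUSG00000069170, chr13:81095068-81633154, minus strand), a very large receptor of the links between stereocilia whose human gene is affected in Usher syndrome, gave normalized counts of 23.6, 28.1 and 17.8 in the Pa1F/F libraries and 77.1, 86.7 and 88.2 in the Pa1-/- libraries. The libraries of each genotype lay close together and the genotypes far apart, with a mean that rose from 23.2 ± 5.14 to 84 ± 6.02 (SD, n = 3; log2 fold change 1.85 ± 0.21 (SE), adjusted p = 0.00125). Adgrg4 (GPR112; ENSMUSG00000053852, chrX:56870163-57001558, plus strand), an orphan receptor known from neuroendocrine cells of the gut, gave counts of 5, 7 and 5 in Pa1F/F and 27, 23 and 36 in Pa1-/-. Its lowest Pa1-/- count exceeded its highest Pa1F/F count several times over, and the mean normalized count rose from 5.52 ± 1.15 to 29.4 ± 5.74 (SD, n = 3; log2 fold change 2.39 ± 0.30 (SE), adjusted p = 0.00177). Per length both stayed rare in Pa1-/-, at 0.228 RPKM for Adgrv1 and 0.204 RPKM for Adgrg4. Both stayed called in each fit that left out 1 library.

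**Figure D2:**
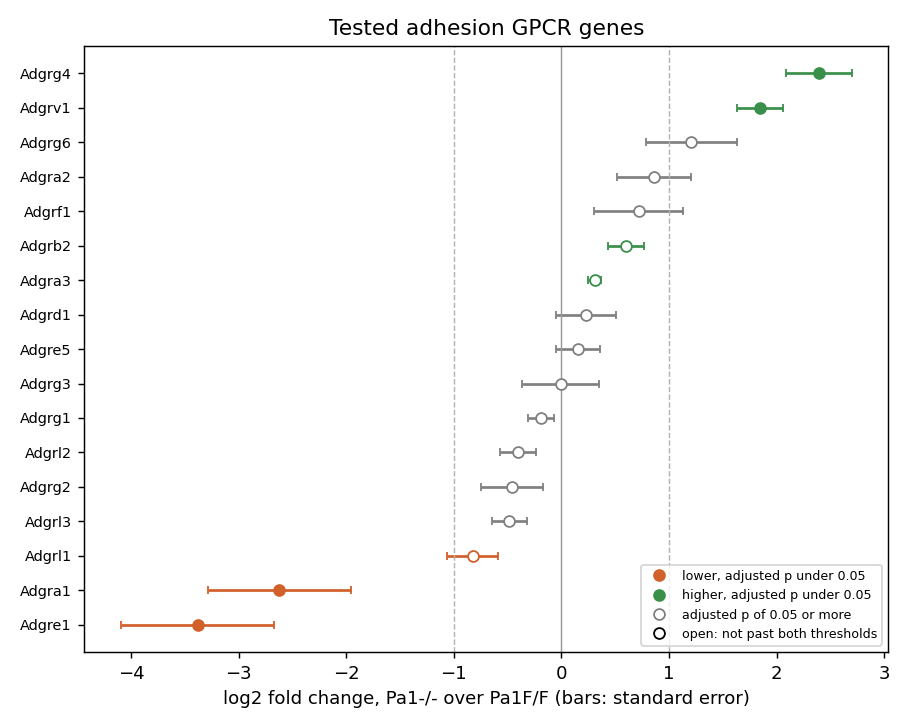
Log2 fold change of the 17 tested adhesion GPCR genes, Pa1-/- over Pa1F/F, with bars of 1 standard error from edgeR's fit. Filled points passed both thresholds, coloured points the adjusted p, and the dashed lines mark a log2 fold change of 1 in either direction. Adgre1 and Adgra1 lie at the lower end with wide bars and Adgrg4 and Adgrv1 at the upper end.

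Adgrb2 (BAI2), of the brain angiogenesis inhibitor group, also rose by less than the fold threshold, with normalized counts of 169, 115 and 176 in the Pa1F/F libraries and 225, 231 and 242 in the Pa1-/- libraries (log2 fold change 0.60 ± 0.17 (SE), adjusted p = 0.0328). Adgrg6 (GPR126), a receptor needed for myelination by Schwann cells and bound by collagen IV, had a larger fitted change that did not pass the test (log2 fold change 1.21 ± 0.42 (SE), adjusted p = 0.0643). Adgrg6 gave normalized counts of 154, 116 and 178 in the Pa1F/F libraries and 448, 444 and 144 in the Pa1-/- libraries. Pa1-/- replicates 1 and 2 lay well above the Pa1F/F range and replicate 3 inside it. Adgrg6 was called higher in DESeq2's Wald test, with genes of at least 1 count kept, without Pa1-/- replicate 3, and without both that library and Pa1F/F replicate 2. The pseudogene Gm10335 lies on the opposite strand within Adgrg6 and held 214 to 370 counts per library, and since the strand setting of the counting was not stated, reads of overlapping genes may not be separable. Adgra2 (GPR124), which with Reck relays Wnt7 signals in brain endothelium, showed the reverse pattern in the same libraries, with normalized counts of 183, 176 and 236 in the Pa1F/F libraries and 257, 249 and 576 in the Pa1-/- libraries. Its Pa1-/- replicate 3 was the highest value, as in the myoid markers Myh11, Cnn1, Des and Actg2, whose part was not tested. The change of Adgra2 did not pass the test (log2 fold change 0.86 ± 0.34 (SE), adjusted p = 0.0932).

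The other tested adhesion GPCR genes did not pass the test. Adgre5 (CD97), which binds CD55 and Thy1, had a log2 fold change of 0.16, adjusted p = 0.587. Adgrd1 (GPR133) had 0.23, adjusted p = 0.555, and Adgrf1 (GPR110) 0.72, adjusted p = 0.220. Adgrg2 (GPR64), known from the efferent ducts and epididymis, had -0.46, adjusted p = 0.257, and Adgrg3 (GPR97), a receptor of leukocytes, -0.01, adjusted p = 0.994. Ddx39 overlaps Adgre5 by 3642 bases on the opposite strand and held 583 to 829 counts per library. The pseudogene Rps16-ps2 overlaps Adgrd1 by 441 bases on the opposite strand and held 369 to 531 counts. Reads of these genes may not be separable either. Over the 17 tested genes, the genotypes did not overlap in 4 genes that were lower and 5 that were higher, against 26.1% and 26.3% of all tested genes. The median coefficient of variation between replicates was 18.7% in Pa1F/F and 27.6% in Pa1-/-.

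The remaining 10 adhesion GPCR genes did not reach the count filter, with no library above 9 counts. They were Adgrb1, Adgrb3, Adgre4, Adgrf2, Adgrf3, Adgrf4, Adgrf5, Adgrg5, Adgrg7 and Adgrl4. Adgrl4 (ELTD1) and Adgrf5 are known from endothelial cells. Adgrl4 held counts of 0, 0 and 0 in Pa1F/F and 2, 2 and 5 in Pa1-/-, so that all Pa1F/F libraries were at 0 and the Pa1-/- libraries near the floor of 3 counts. Adgrf5 held 2, 2 and 4 in Pa1F/F and 5, 2 and 1 in Pa1-/-, with overlapping genotypes. Of 10 endothelial markers 9 were listed, with Emcn and Cldn5 at 0 in several libraries of each genotype, and the summed level was 117 to 122 CPM in Pa1F/F and 63.7 to 106 CPM in Pa1-/-. Most of this sum came from Cdh5 alone, at 54.5 to 108 CPM in the 6 libraries. Kdr, an endothelial receptor, gave counts of 69, 103 and 66 in Pa1F/F and 82, 66 and 484 in Pa1-/-, with Pa1-/- replicate 3 far above the other libraries. Adgre4, a relative of Adgre1, held counts of 1, 2 and 1 in Pa1F/F and 9, 3 and 9 in Pa1-/-, higher in each Pa1-/- library but outside the test.

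Ligands and partners of adhesion GPCRs were taken from a list of 31 genes, of which 29 were in the table and 23 were tested. At an adjusted p under 0.05, 6 were lower and 7 higher, against 17.1% and 18.2% of all tested genes, and 3 and 5 of these passed the fold threshold. Among the ligands of latrophilins, Flrt2 rose from 1030.1 ± 76.3 to 2936 ± 111 normalized counts (SD, n = 3; log2 fold change 1.51 ± 0.07 (SE), adjusted p = 6.99e-05). Its libraries stood at 1012, 964 and 1114 in the Pa1F/F libraries and 2815, 2959 and 3033 in the Pa1-/- libraries, tightly grouped by genotype. Tenm4, a teneurin, rose from 141 ± 36.2 to 321 ± 53.7 (log2 fold change 1.19 ± 0.22 (SE), adjusted p = 0.00654), and Tenm2, another, from 1.57 ± 1.47 to 24 ± 9 (log2 fold change 3.79 ± 0.65 (SE), adjusted p = 0.00539). Tenm3, the most highly read teneurin, did not pass the test (log2 fold change 0.93 ± 0.32 (SE), adjusted p = 0.0610). The other FLRT genes had negative fold changes that did not pass the test. Flrt1 gave normalized counts of 468, 551 and 489 in the Pa1F/F libraries and 369.9, 421 and 274 in the Pa1-/- libraries, without overlap (log2 fold change -0.50 ± 0.16 (SE), adjusted p = 0.0516). Flrt3 was read at lower counts with overlapping genotypes (log2 fold change -0.46 ± 0.43 (SE), adjusted p = 0.448).

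Among the ligands of Adgrg1, Tgm2, the gene of transglutaminase 2, fell from 2256 ± 176 to 885 ± 57.8 normalized counts (SD, n = 3; log2 fold change -1.35 ± 0.08 (SE), adjusted p = 0.000124). Col3a1, collagen III, fell by less than the fold threshold (log2 fold change -0.91, adjusted p = 0.0333), with normalized counts of 12824, 13350.0 and 13898 in the Pa1F/F libraries and 5345, 5498 and 10486 in the Pa1-/- libraries. Of the collagen IV genes, whose product binds Adgrg6, Col4a2 fell past both thresholds (log2 fold change -1.12, adjusted p = 0.000784) and Col4a1 passed the adjusted p (log2 fold change -0.86, adjusted p = 0.00610). The prion protein gene Prnp, another ligand of Adgrg6, rose (log2 fold change 1.04, adjusted p = 0.000124). Lama2, also on the list, rose by less than the fold threshold (log2 fold change 0.77, adjusted p = 0.0370). Thy1, a ligand of Adgre5 and also a surface marker of stem and stromal cells, rose from 10.2 ± 6.22 to 76.6 ± 29.7 (log2 fold change 2.88 ± 0.49 (SE), adjusted p = 0.00502).

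Downstream of the receptors, Elmo1, the engulfment adaptor that Adgrb1 is known to bind, gave normalized counts of 1431, 1101 and 1527 in the Pa1F/F libraries and 242, 283 and 163 in the Pa1-/- libraries. Every Pa1-/- library was far below every Pa1F/F library (log2 fold change -2.56 ± 0.22 (SE), adjusted p = 0.000451), while Adgrb1 itself was not above 6 counts in any library and Dock1, which acts with Elmo1, did not pass the test (log2 fold change -0.23, adjusted p = 0.336). The G protein genes Gna13 and Gna12 moved apart, with log2 fold changes of -0.55, adjusted p = 0.00182, and 0.39, adjusted p = 0.0169. The 3 Celsr genes, adhesion GPCRs of planar cell polarity that the naming rule leaves out, also differed among themselves. Celsr2 rose (log2 fold change 1.13 ± 0.24 (SE), adjusted p = 0.0110), Celsr3 fell from 18.2 ± 5.13 to 5.17 ± 0.402 normalized counts (log2 fold change -1.80 ± 0.35 (SE), adjusted p = 0.00858), and Celsr1 did not pass the test (log2 fold change 0.66 ± 0.30 (SE), adjusted p = 0.129).

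The tetraspanin genes were read at higher levels than the adhesion GPCR genes. Their median level over both genotypes was 8.89 RPKM in the tested genes, against 0.689 RPKM for the tested adhesion GPCR genes. The summed RPKM of the 26 genes was 425, 424 and 431 in the Pa1F/F libraries and 415, 414 and 411 in the Pa1-/- libraries. All Pa1-/- libraries lay slightly below, and the step was small beside the changes of single members. The median coefficient of variation between replicates was 10.2% in Pa1F/F and 12.0% in Pa1-/-.

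Cd81, a partner of immunoglobulin-type proteins and of the B cell co-receptor, was the most highly read, at 96.8 ± 5.72 RPKM in Pa1F/F and 93.5 ± 3.96 RPKM in Pa1-/-. Cd81 gave normalized counts of 5101, 5721 and 5293 in the Pa1F/F libraries and 5279, 5347 and 4937 in the Pa1-/- libraries, with overlapping genotypes and no change past the test (log2 fold change -0.05 ± 0.07 (SE), adjusted p = 0.590). Tspan17 stood next at 73.8 ± 8.56 RPKM in Pa1F/F and 62.5 ± 7.98 RPKM in Pa1-/- and is described with its group. Cd151, the partner of the laminin-binding integrins, followed in the mean over the 6 libraries. It stood at 56.8 ± 0.666 RPKM in Pa1F/F and 75.3 ± 2.56 RPKM in Pa1-/-, where it was above Tspan17. Its normalized counts were 4355, 4297 and 4399 in the Pa1F/F libraries and 5673, 5637 and 5994 in the Pa1-/- libraries. The libraries of each genotype were tightly grouped, and a rise under the fold threshold passed the adjusted p (log2 fold change 0.41 ± 0.05 (SE), adjusted p = 0.00186). Its share of the summed RPKM was 13.3% ± 0.0782 in Pa1F/F and 18.2% ± 0.716 in Pa1-/- (SD, n = 3), while that of Cd81 was 22.7% and 22.6%.

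Cd9, needed on the egg for sperm fusion and found on many epithelia, fell by less than the fold threshold. Cd9 gave normalized counts of 658, 642 and 679.6 in the Pa1F/F libraries and 461, 490.1 and 570.1 in the Pa1-/- libraries, without overlap (log2 fold change -0.38 ± 0.09 (SE), adjusted p = 0.0210). Cd82, first known as a suppressor of metastasis, gave 797, 1192 and 751 in the Pa1F/F libraries and 949, 899 and 885 in the Pa1-/- libraries. Its highest value was Pa1F/F replicate 2, the genotypes overlapped, and the change did not pass the test (log2 fold change -0.00 ± 0.17 (SE), adjusted p = 0.989). Without Pa1F/F replicate 2 and Pa1-/- replicate 3 its log2 fold change was 0.25 with an adjusted p of 0.00137. Without Pa1F/F replicate 2 alone it was 0.23 (adjusted p = 0.0529), and without Pa1-/- replicate 3 alone 0.02 (adjusted p = 0.949).

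Of the 5 tetraspanin genes past both thresholds that were lower, Tspan15 was the most highly read and gave the lowest adjusted p of the family. Tspan15 (ENSMUSG00000037031, chr10:62185396-62231251, minus strand), whose product guides the protease ADAM10 to N-cadherin, gave normalized counts of 2204, 2606 and 1947 in the Pa1F/F libraries and 816, 769 and 867 in the Pa1-/- libraries. The lowest Pa1F/F library held more than 2 times the reads of the highest Pa1-/- library. The mean fell from 2252 ± 332 to 817 ± 48.7 (SD, n = 3; log2 fold change -1.46 ± 0.11 (SE), adjusted p = 0.000305), a 2.75-fold difference.

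Tspan11 (ENSMUSG00000030351, chr6:127887589-127953977, plus strand), a little studied member, showed the largest fall of the family. Tspan11 gave normalized counts of 383, 375 and 457 in the Pa1F/F libraries and 53.7, 45.1 and 103 in the Pa1-/- libraries. Pa1-/- replicate 3 was higher than the other Pa1-/- libraries and still far below Pa1F/F. The mean fell from 405 ± 45.4 to 67.3 ± 31.4 (SD, n = 3; log2 fold change -2.58 ± 0.30 (SE), adjusted p = 0.00124), a 5.99-fold difference. Its neighbour Tspan9, known from platelets, lies 7418 bases away on the opposite strand and rose by less than the fold threshold, with normalized counts of 1366, 1109 and 1412 in the Pa1F/F libraries and 1768, 1713 and 1526 in the Pa1-/- libraries (log2 fold change 0.37 ± 0.11 (SE), adjusted p = 0.0351).

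Tspan18 (ENSMUSG00000027217, chr2:93201760-93334505, minus strand), known from endothelial cells as a partner of the calcium channel Orai1, gave normalized counts of 260.1, 415 and 292 in the Pa1F/F libraries and 64.4, 59.7 and 124 in the Pa1-/- libraries. The genotypes did not overlap, Pa1F/F replicate 2 was the highest and Pa1-/- replicate 3 the highest of its genotype. The mean fell from 322 ± 82.1 to 82.8 ± 36 (SD, n = 3; log2 fold change -1.96 ± 0.32 (SE), adjusted p = 0.00444). Cd82, which lies 84605 bases from it on the same strand, did not pass the test. Tspan12 (ENSMUSG00000029669, chr6:21771395-21852515, minus strand), a co-receptor of norrin and Frizzled-4 in retinal vessels, gave 179, 139 and 207 in the Pa1F/F libraries and 65.4, 77.7 and 85.2 in the Pa1-/- libraries. Here the replicates of each genotype agreed within a narrower range (log2 fold change -1.20 ± 0.19 (SE), adjusted p = 0.00388), and Fzd4, the gene of Frizzled-4, did not pass the test (log2 fold change 0.43, adjusted p = 0.103). The endothelial marker Cdh5 fell as well (log2 fold change -0.87, adjusted p = 0.000536), Pecam1 fell (log2 fold change -1.73, adjusted p = 0.00918), Vwf rose (log2 fold change 1.63, adjusted p = 0.0339), and Kdr did not pass the test. The part of endothelial cells in these values was not tested. With the close pairs of libraries summed, neither Tspan18 (adjusted p = 0.0615) nor Tspan12 (adjusted p = 0.0670) was called.

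Cd53 (ENSMUSG00000040747, chr3:106759921-106790149, minus strand) and Cd37 are tetraspanins of leukocytes. Cd53 gave counts of 30, 21 and 28 in Pa1F/F and 7, 8 and 12 in Pa1-/-. All Pa1-/- libraries were below the Pa1F/F libraries, and the mean normalized count fell from 25.6 ± 4.71 to 9.29 ± 2.61 (SD, n = 3; log2 fold change -1.45 ± 0.31 (SE), adjusted p = 0.0118). Its adjusted p was 0.0516 without Pa1F/F replicate 3 and 0.112 with the close pairs of libraries summed. Cd53 was also not called against a null of a log2 fold change of 1. A table limited to genes with at least 10 counts in every library left it out. Cd37 held counts of 21, 12 and 8 in Pa1F/F and 1, 3 and 1 in Pa1-/- and did not reach the count filter of the test as reported, although its genotypes did not overlap. It was tested and called lower in DESeq2's Wald test, with genes of at least 1 count kept, with the close pairs summed, and without any 1 Pa1-/- library or without Pa1F/F replicate 3. As for Adgre1, 10 of 12 tested macrophage markers fell in the same libraries, 9 of them past both thresholds, with Itgam and Tyrobp at 0 in Pa1-/- replicate 3 and C1qa at 0 in Pa1-/- replicate 2. Mrc1, the most highly read of that list, and C1qb did not pass the test (adjusted p = 0.254 and 0.0750). The lymphocyte list gave 5 listed genes with a summed level of 1.14 to 2.54 CPM in Pa1F/F and 0.699 to 1.67 CPM in Pa1-/-. The number of macrophages and the amount of these RNAs per cell cannot be told apart, and the part of macrophages in the change of Cd53 was not tested.

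**Figure D3:**
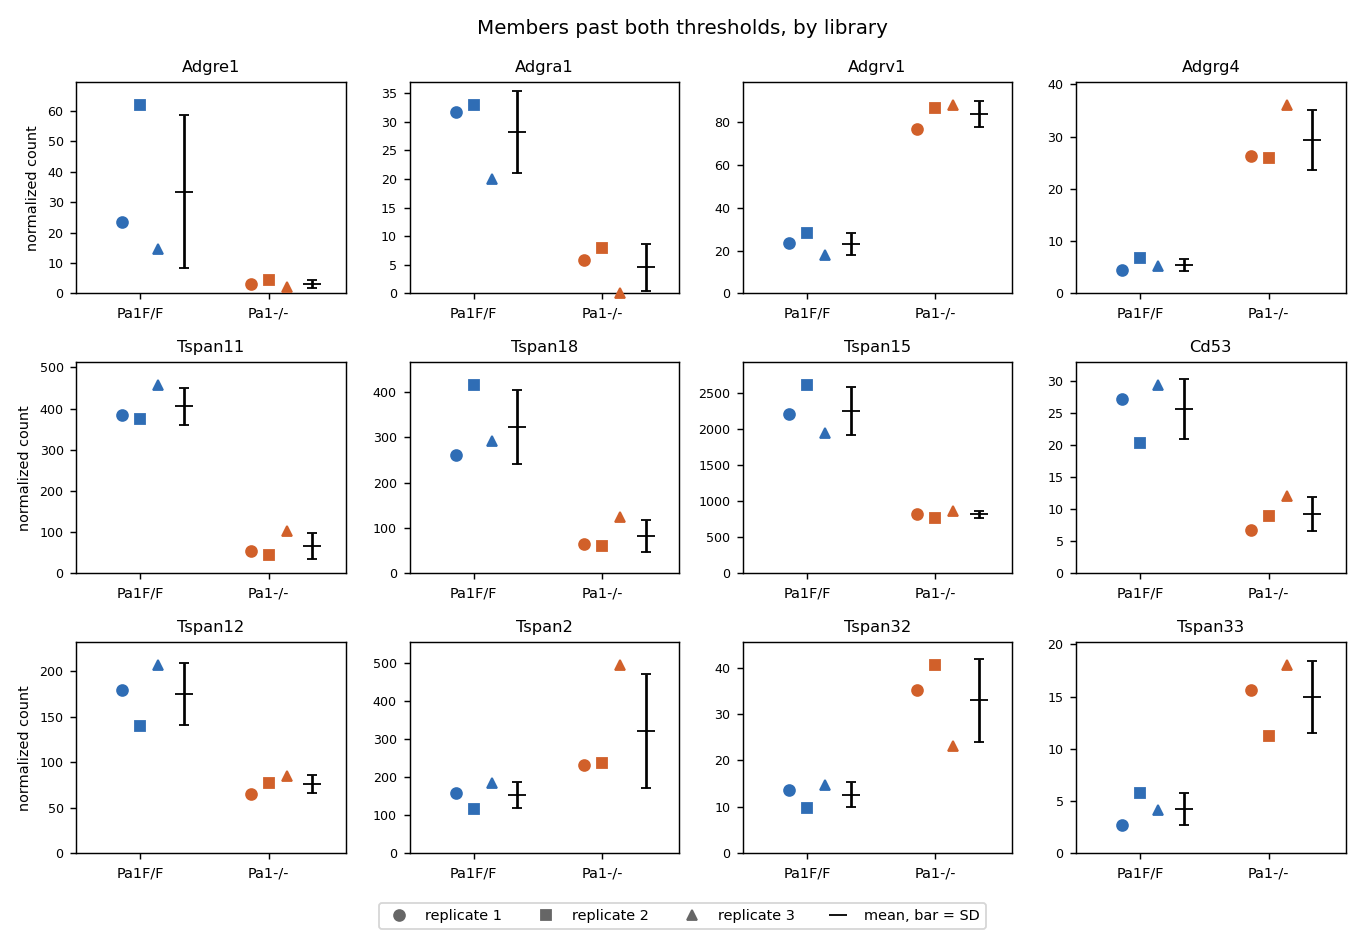
Normalized counts (linear axes from 0) of the 12 members past both thresholds in each library, Pa1F/F in blue and Pa1-/- in orange, the marker shape giving the replicate number and the bar the mean ± SD of 3 libraries. The genotypes do not overlap in any panel, and Pa1F/F replicate 2 stands out in Adgre1 and Tspan18 and Pa1-/- replicate 3 in Tspan2 and Tspan11.

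Past both thresholds, 3 tetraspanin genes rose, Tspan33, Tspan32 and Tspan2. Tspan33 (Penumbra; ENSMUSG00000001763, chr6:29694222-29718559, plus strand), known from red cell precursors and B cells, gave counts of 3, 6 and 4 in Pa1F/F and 16, 10 and 18 in Pa1-/-. The genotypes did not overlap but the counts were small, and the mean normalized count rose from 4.24 ± 1.55 to 15 ± 3.43 (SD, n = 3; log2 fold change 1.81 ± 0.39 (SE), adjusted p = 0.0126). Tspan32 (TSSC6; ENSMUSG00000000244, chr7:143005046-143019644, plus strand), a tetraspanin of blood cells, gave counts of 15, 10 and 14 in Pa1F/F and 36, 36 and 23 in Pa1-/-. Its rise, from 12.7 ± 2.63 to 32.9 ± 8.96 normalized counts (log2 fold change 1.37 ± 0.31 (SE), adjusted p = 0.0152), passed both thresholds, and Tspan32os on the opposite strand held 0 to 5 counts. Tspan2 (ENSMUSG00000027858, chr3:102734529-102801513, plus strand), known from oligodendrocytes, gave normalized counts of 159, 116 and 185 in the Pa1F/F libraries and 233, 239 and 496 in the Pa1-/- libraries. Pa1-/- replicate 3 held more than 2 times the reads of the other Pa1-/- libraries (log2 fold change 1.07 ± 0.33 (SE), adjusted p = 0.0451), and without it the log2 fold change was 0.62 and the gene was not called. The myoid markers Myh11, Cnn1, Des and Actg2 were highest in the same library, with Des at counts of 153, 96 and 108 in Pa1F/F and 45, 41 and 484 in Pa1-/- and Cnn1 at 59, 28 and 62 in Pa1F/F and 35, 22 and 420 in Pa1-/-, and the part of such cells in the value of Tspan2 was not tested. Tspan32 lost its call without Pa1-/- replicate 1, Pa1-/- replicate 2 or Pa1F/F replicate 1, with adjusted p of 0.0516 to 0.0527, while its log2 fold change ran from 1.21 to 1.57 without any 1 library. The log2 fold change of Tspan33 was 1.56 or higher in each such fit, and it lost its call without Pa1F/F replicate 1 (adjusted p = 0.0511) or replicate 3 (adjusted p = 0.0501). In these fits of Tspan32 and Tspan33 only the adjusted p crossed its threshold. Tspan2 lost its call without Pa1-/- replicate 3 or any Pa1F/F library, and its log2 fold change ran from 0.62 to 1.27. With the close pairs summed none of the 3 was called (adjusted p = 0.0793 for Tspan33, 0.112 for Tspan32 and 0.114 for Tspan2), nor against a null of a log2 fold change of 1, and Tspan33 was left out of the table of genes with at least 10 counts in every library. Tspan2 also lost its call in limma-voom (adjusted p = 0.0633) and Tspan32 with the replicate number as a block (adjusted p = 0.0542). Cd81, which lies 33094 bases from Tspan32 on the same strand, did not pass the test.

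**Figure D4:**
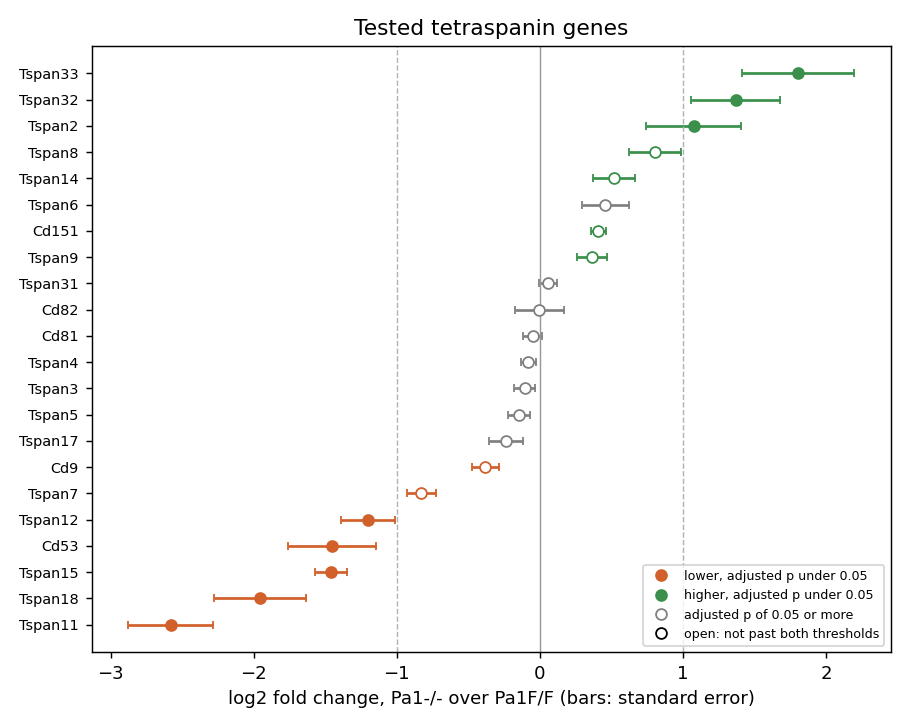
Log2 fold change of the 22 tested tetraspanin genes, Pa1-/- over Pa1F/F, with bars of 1 standard error from edgeR's fit. Filled points passed both thresholds, coloured points the adjusted p, and the dashed lines mark a log2 fold change of 1 in either direction. The 5 called lower genes run from Tspan12 to Tspan11, and a run of genes around 0 (Tspan31, Cd82, Cd81, Tspan4, Tspan3) has narrow bars apart from Cd82.

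The TspanC8 group, Tspan5, Tspan10, Tspan14, Tspan15, Tspan17 and Tspan33, carries ADAM10 to the cell surface, and its members steer the protease to different substrates. Tspan17 made up most of the group's summed RPKM, 71.7% ± 4.32 in Pa1F/F and 77% ± 4.26 in Pa1-/- (SD, n = 3). This share rests on the exon lengths used, 2152 bases for Tspan17 and 8415 bases for Tspan15. Their mean normalized counts, without regard to length, were 2338 and 2252 in Pa1F/F and 1982 and 817 in Pa1-/-. Tspan15 held 16.6, 22 and 14.9% of the sum in the Pa1F/F libraries and 7.77, 7.37 and 9.46% in the Pa1-/- libraries. Its share was lower in each Pa1-/- library, while that of Tspan14 was higher in each, at 3.72, 3.70 and 3.82% in Pa1F/F and 5.96, 5.57 and 9.14% in Pa1-/-. The summed RPKM itself was 107, 95.5 and 105 in Pa1F/F and 84.7, 84.2 and 73.9 in Pa1-/-, without overlap.

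By gene, Tspan17 gave normalized counts of 2476, 2026 and 2513 in the Pa1F/F libraries and 2129, 2128 and 1690.3 in the Pa1-/- libraries, with overlapping genotypes and no change past the test (log2 fold change -0.24 ± 0.12 (SE), adjusted p = 0.168). Tspan5 gave 1461, 1463 and 1323 in the Pa1F/F libraries and 1194, 1257 and 1386 in the Pa1-/- libraries, likewise overlapping (log2 fold change -0.15 ± 0.08 (SE), adjusted p = 0.177). Tspan14 gave 476, 423 and 482 in the Pa1F/F libraries and 605, 562 and 809.6 in the Pa1-/- libraries. It rose by less than the fold threshold (log2 fold change 0.52 ± 0.15 (SE), adjusted p = 0.0331), with Pa1-/- replicate 3 the highest library. Tspan10, known from the eye, held 1 count in Pa1-/- replicate 1 and none in the other libraries, and was not tested.

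**Figure D5:**
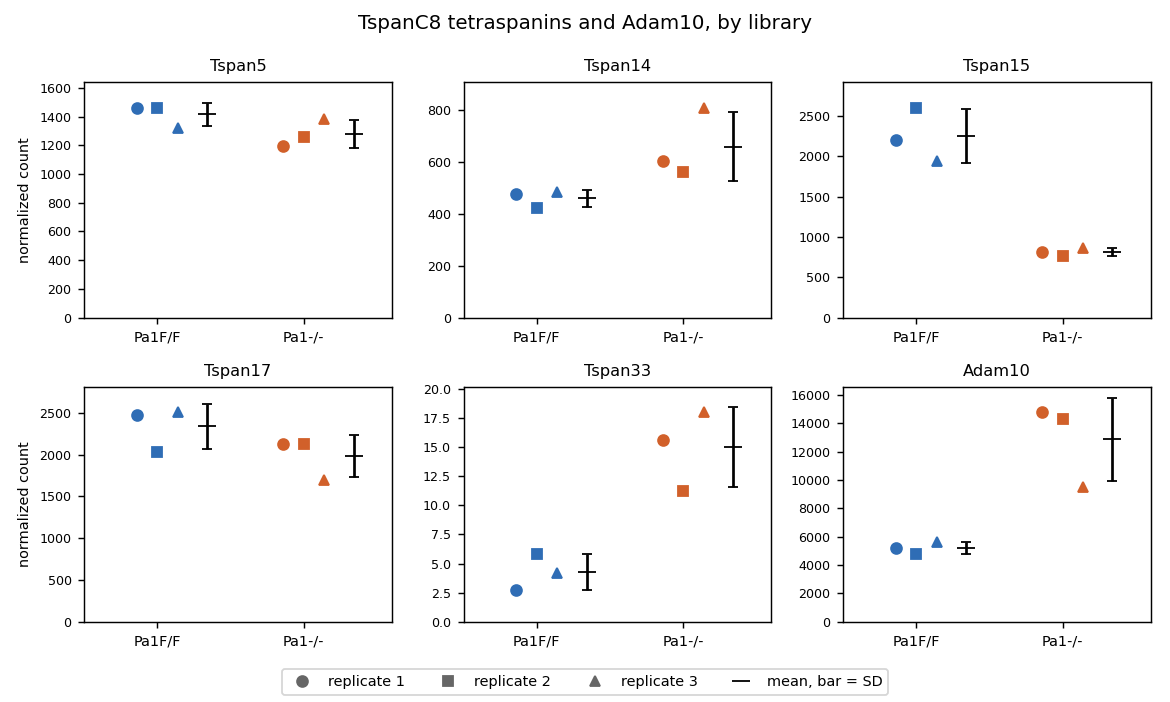
Normalized counts (linear axes from 0) of the 5 TspanC8 genes that were tested and of Adam10 in each library, Pa1F/F in blue and Pa1-/- in orange, with marker shapes for the replicate number and bars for the mean ± SD of 3 libraries. Tspan15 is lower and Adam10 higher in every Pa1-/- library, Tspan14 and Tspan33 are higher, and the genotypes of Tspan5 and Tspan17 overlap.

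Adam10 itself gave normalized counts of 5177, 4819 and 5619 in the Pa1F/F libraries and 14827, 14328 and 9479 in the Pa1-/- libraries. The mean rose from 5205 ± 401 to 12878 ± 2954 (SD, n = 3; log2 fold change 1.31 ± 0.17 (SE), adjusted p = 0.00208), with Pa1-/- replicate 3 below the other Pa1-/- libraries and above all Pa1F/F libraries. Its substrates Notch1 and Notch2 did not pass the test, with log2 fold changes of 0.40, adjusted p = 0.137, and -0.19, adjusted p = 0.0799.

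Adam10 belonged to a list of 30 genes known to bind tetraspanins, of which 29 were in the table and 25 tested. At an adjusted p under 0.05, 9 were higher and 1 lower, against 18.2% and 17.1% of all tested genes, and 2 passed the fold threshold as well, both higher. Integrin subunits that Cd151 binds were among them. Itga3, the laminin-binding α3 subunit, gave normalized counts of 2718, 1736 and 2964 in the Pa1F/F libraries and 7654, 7264 and 4637 in the Pa1-/- libraries and rose past both thresholds (log2 fold change 1.40 ± 0.25 (SE), adjusted p = 0.00661). Itga6, the α6 subunit, rose by less than the fold threshold (log2 fold change 0.67, adjusted p = 0.00303), and so did Itgb1, the common β1 subunit (log2 fold change 0.52, adjusted p = 0.00345). Itga7, the laminin-binding α7 subunit, did not pass the test (log2 fold change -0.31, adjusted p = 0.154), and Itgb4 did not reach the count filter. Cd151, Itga3, Itga6 and Itgb1 rose by unequal amounts.

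Of the immunoglobulin-type partners of Cd9 and Cd81, Igsf8 rose (log2 fold change 0.64, adjusted p = 0.0141) and Ptgfrn fell (log2 fold change -0.77, adjusted p = 0.00460), neither past the fold threshold. Ptgfrn gave normalized counts of 2129, 2935 and 2233 in the Pa1F/F libraries and 1419, 1352 and 1522 in the Pa1-/- libraries, with no overlap. Epcam, Tgfa, Plxnb1 and Itgav also rose by less than the fold threshold, with log2 fold changes of 0.60, 0.67, 0.62 and 0.38. The tetraspanins with other names gave no call. Cd63, a tetraspanin of late endosomes and exosomes, gave normalized counts of 9210.1, 9345 and 9507 in the Pa1F/F libraries and 10182, 9879 and 7293 in the Pa1-/- libraries (log2 fold change -0.04 ± 0.13 (SE), adjusted p = 0.844). Upk1a, Upk1b and Rom1 were tested and did not pass, and Prph2 did not reach the count filter.

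Of the remaining tetraspanin genes, Tspan7, known from the brain and from an X-linked intellectual disability, fell just short of the fold threshold. Tspan7 gave normalized counts of 481, 421 and 456 in the Pa1F/F libraries and 229, 266 and 269.5 in the Pa1-/- libraries, tightly grouped by genotype (log2 fold change -0.83 ± 0.10 (SE), adjusted p = 0.00158). Tspan8, known from epithelia and carcinomas, gave 38.1, 44.5 and 45.1 in the Pa1F/F libraries and 68.3, 68.7 and 86.2 in the Pa1-/- libraries and rose, also under the fold threshold (log2 fold change 0.81 ± 0.18 (SE), adjusted p = 0.0147). Of the mesothelial markers, Upk3b, Lrrn4, Krt19 and Muc16 were higher in the same Pa1-/- libraries, and Msln, the most highly read of them in Pa1F/F, did not pass the test and had a negative fold change (log2 fold change -0.53 ± 0.34 (SE), adjusted p = 0.261). The summed level was 26.8 to 36.8 CPM in Pa1-/-, most of it from Upk3b, against 4.82 to 7.82 CPM in Pa1F/F, and their part in the change of Tspan8 was not tested. Tspan6 did not pass the test although its genotypes did not overlap (log2 fold change 0.46 ± 0.16 (SE), adjusted p = 0.0679). Tspan3, Tspan4 and Tspan31 did not pass it either, with log2 fold changes of -0.11, -0.08 and 0.06. Tspan4 lies 3766 bases from Cd151 on the same strand and gave 2306, 2220.2 and 2293 in the Pa1F/F libraries and 2169, 2222 and 2062 in the Pa1-/- libraries, with overlapping genotypes, beside the rise of Cd151. Tspan31 overlaps Cdk4 by 641 bases on the opposite strand and Tspan4 overlaps Chid1 by 292 bases, so reads there may not be separable. Cd37, Tspan1, Tspan10 and Tspan13 did not reach the count filter, with no library above 21 counts. Over the 22 tested tetraspanin genes the genotypes did not overlap in 7 genes that were lower and 8 that were higher, against 26.1% and 26.3% of all tested genes.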

How the data were processed

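RNA of isolated Sertoli cells was sequenced in 6 libraries, 3 per genotype, grouped by the labels. According to the methods of the study and the submitters' processing notes, reads were aligned to GRCm38 with HISAT2 2.1.0 and counted per gene with HTSeq 0.6.0, and the authors deposited the raw counts without normalization. The strand setting is not given in the sources used here. The same table holds the authors' own comparison (fold change, p-value, adjusted p-value and mean), which was not used. No count column was left out, and coordinates of genes are those of the table.

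Genes were filtered with edgeR's filterByExpr (minimum count 10, minimum total 15), which kept 14919 of 28262 genes, normalized with TMM (factors 0.990 to 1.03) and tested by quasi-likelihood F-test (edgeR 4.0.16, limma 3.58.1 and DESeq2 1.42.0 in R 4.3.3, Python 3.11.15), with Benjamini-Hochberg adjustment over all tested genes. The thresholds follow the study, an adjusted p under 0.05 with a log2 fold change of 1 or more in size. The SE is the absolute log2 fold change divided by the square root of F. RPKM used the union exon length of each gene from GENCODE vM39, matched by gene identifier for all 53 members. That release is not the one the study names, and RPKM compared between genes depends on these lengths. The steps were tested on simulated counts.

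The members, the partner and marker lists and the alternatives were chosen with earlier results of these data known, so counts over them are descriptions. Values per library are given for members past both thresholds, the 3 most highly read of each family, the Cd-named tetraspanins, Adgre1, Adgrl4, Adgrf5 and the TspanC8 genes, and for further members and partners chosen after their values were seen. Replicate numbers were not treated as pairs. Protein sequences were not used here.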

Additional observations from a re-analysis of the deposited data

How the results depend on the processing

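The test as reported called 1791 genes of all kinds. DESeq2's size factors, library size alone, limma-voom, DESeq2's Wald test and a filter of at least 1 count kept the number of calls in all genes within 1.5 times of this. Adgrv1, Adgrg4, Tspan11 and Tspan15 were called under every alternative run, except that Adgrg4 fell out of the test when at least 10 counts were asked in every library. That filter left 0 adhesion GPCR genes lower and 1 higher. Keeping genes with at least 1 count gave 4 adhesion GPCR genes higher, with Adgre4, Adgrg6 and the tetraspanin Cd37 added, and a tetraspanin median of -0.00198, against -0.0220 in DESeq2's Wald test, which added Adgrg6 and Cd37. Leaving out both Pa1F/F replicate 2 and Pa1-/- replicate 3 gave 4 adhesion GPCR genes higher, a tetraspanin median of -0.0201, and Cd81 at 0.0297, reversed from -0.05. Summing the close pairs of each genotype gave 883 calls in all, 0 adhesion GPCR genes lower, 3 tetraspanin genes lower and 0 higher. Of these 3, Tspan11 and Tspan15 were called as reported and Cd37 was added, while Tspan2, Tspan12, Tspan18, Tspan32, Tspan33, Cd53, Adgra1 and Adgre1 lost their calls. edgeR's glmTreat against a log2 fold change of 1 gave 538 calls, 0 adhesion GPCR genes lower, 2 tetraspanin genes lower and 0 higher, with the same losses. Without a fold threshold 5266 genes passed, with 4 adhesion GPCR genes and 7 tetraspanin genes higher. Cd82, just below 0 as reported, turned to 0.00177 in DESeq2's Wald test, 0.00454 with library size alone, 0.0216 with at least 1 count, 0.0266 in limma-voom and 0.25 without both libraries named above. Cd82's value without 1 library ranged from -0.11 to 0.23, the highest without Pa1F/F replicate 2. The cause was not tested, apart from fewer libraries or genes entering some fits.

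Leaving out 1 library at a time gave 1466 to 2076 calls in all genes, 1 to 3 adhesion GPCR genes lower and 2 to 4 higher, 5 to 6 tetraspanin genes lower and 0 to 2 higher. The medians ran from 0.04 to 0.28 in adhesion GPCR genes and from -0.09 to -0.05 in tetraspanin genes. Without Pa1-/- replicate 3, Adgrf1, Adgrg6, Adgrl1 and Cd37 were called in addition, and Cd37 also without Pa1-/- replicate 1 or 2 or Pa1F/F replicate 3. Deviations of same-numbered libraries from their genotype means correlated at 0.108, -0.164 and -0.179. The highest value, 0.214, was between Pa1F/F replicate 2 and Pa1-/- replicate 3, the libraries farther from their genotype. The 3 libraries per genotype, 1 of them farther from the others, cannot show or exclude a pairing. With the replicate number as a block there were 1558 calls, 2 adhesion GPCR genes lower and 2 higher, 5 tetraspanin genes lower and 2 higher, Tspan32 being lost at an adjusted p of 0.0542, and Cd82 at 0.0272. The 14 untested members held at most 21 counts in a library and did not pass the count filter of the test as reported.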
